A study of Bos taurus with 4 samples.

Results

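The Sprouty, SPRED and ERRFI1 feedback inhibitors were followed in bovine inner cell mass (ICM), the part of the blastocyst that gives rise to the embryo proper. The members were all probes that the platform annotation names SPRY2, SPRY4, SPRED1, SPRED2 or ERRFI1, which gave 13 probes for 5 genes, out of 43653 probes on the array, of which 27952 carried a gene name, for 12545 genes. SPRY2 and SPRY4 had 2 probes each, SPRED1 had 4, SPRED2 had 3 and ERRFI1 had 2. Probes are numbered within a gene from the brightest.

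Bovine embryos were produced in vitro. From the day 5 change of medium they were cultured with PD0325901 (MAPK-inhibited ICM, labelled ICM-PD) or with its solvent DMSO (control ICM, labelled ICM-DMSO). PD0325901 blocks MEK, the kinase that activates ERK. Blastocysts were collected on day 9, and the ICM was cut from the trophectoderm, the outer layer of the blastocyst, by hand. By the study's account, the cut ICM still held some trophectoderm cells. Each group comprised 2 biological replicates on 1 array each, and all 4 arrays carried the same pool of whole blastocysts in the other channel. Replicate a of each group carried ICM cRNA labelled with Cy3 and replicate b with Cy5. The labels name no separate cultures, so the p-values measure the spread between these samples. In the fit, the variance of each probe was drawn toward that of all probes.

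Receptor tyrosine kinases such as the FGF and EGF receptors activate RAS, RAF, MEK and ERK in turn, and ERK induces genes that damp the same signal. Sprouty and SPRED proteins share a cysteine-rich Sprouty domain and act on the way to RAS and RAF, whereas ERRFI1, also known as MIG6, binds EGF receptor family kinases and blocks their activity. In mouse embryonic stem cells and embryos, Spry4 is used as a reporter of FGF and ERK signalling, and in mouse blastocysts this pathway directs ICM cells to the hypoblast.

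SPRY2 showed the largest difference among the 5 genes, with lower ratios to the pool in MAPK-inhibited ICM on both of its probes. SPRED1 was lower on its brightest probe and not on its second probe. All named probes of SPRY4, SPRED2 and ERRFI1 had intervals that included 0. No member probe reached an adjusted p under 0.05 (limma, Benjamini-Hochberg over all 43653 probes), and 0 of all probes did, which is 0% of the array. The smallest adjusted p of any probe was 0.263. At an unadjusted p under 0.05, 2022 probes were lower and 2403 higher in MAPK-inhibited ICM, and with median centring in place of loess 4763 were lower and 904 higher.

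SPRY2 binds GRB2 and the ubiquitin ligase CBL and holds back RAS activation by FGF receptors. As scanned, the ICM signal of its probe 1 (BTAA009979) was 761 and 609 on the MAPK-inhibited arrays a and b, against 1421 and 1296 on the control arrays a and b. The pool signal of the same spots was 949 and 733 on the MAPK-inhibited arrays, against 780 and 858 on the control arrays. Before normalization the ICM channel was dimmer than the pool channel on both MAPK-inhibited arrays and brighter on both control arrays. Over all probes, the median ICM and pool signals were 110 and 147 on MAPK-inhibited array a, so the channels can be compared only as normalized ratios.

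After normalization, the log2 ratio of ICM over pool for SPRY2 probe 1 was 0.21 and -0.24 in MAPK-inhibited ICM, against 0.65 and 0.68 in control ICM. The means were -0.02 ± 0.32 in MAPK-inhibited ICM and 0.66 ± 0.02 in control ICM (SD, n = 2 each). The groups did not overlap, and the replicates of MAPK-inhibited ICM lay further apart than those of control ICM. Only 0.66% of all probes had a higher mean ratio than this probe in control ICM.

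The log2 difference, MAPK-inhibited minus control ICM, was -0.68 for SPRY2 probe 1 (SE 0.143, 95% interval -1.08 to -0.28), a ratio 0.625 times that of control ICM. Its unadjusted p was 0.00967 and its adjusted p was 0.351 (limma). Within replicate a the difference was -0.43 and within replicate b -0.92. A lower difference was found for 0.48% of all probes. In dissected tissue, fewer cells of a type and less RNA per cell cannot be told apart.

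SPRY2 probe 2 (BTAA033973) was dimmer, with ICM signals of 64.9 and 93.1 on the MAPK-inhibited arrays, against 203 and 197 on the control arrays. Its log2 ratios were 0.14 and -0.04 in MAPK-inhibited ICM, against 0.54 and 0.54 in control ICM. The groups did not overlap on this probe either, and the difference was -0.49 (SE 0.0842, unadjusted p = 0.00472, adjusted p = 0.324 in limma). On MAPK-inhibited array a the pixels of this spot varied with a coefficient of variation of 87.7%, and without that array the difference was -0.58. With the local background mean in place of the median it was -0.25, and SPRY2 probe 1 was -0.67.

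**Figure D1:**
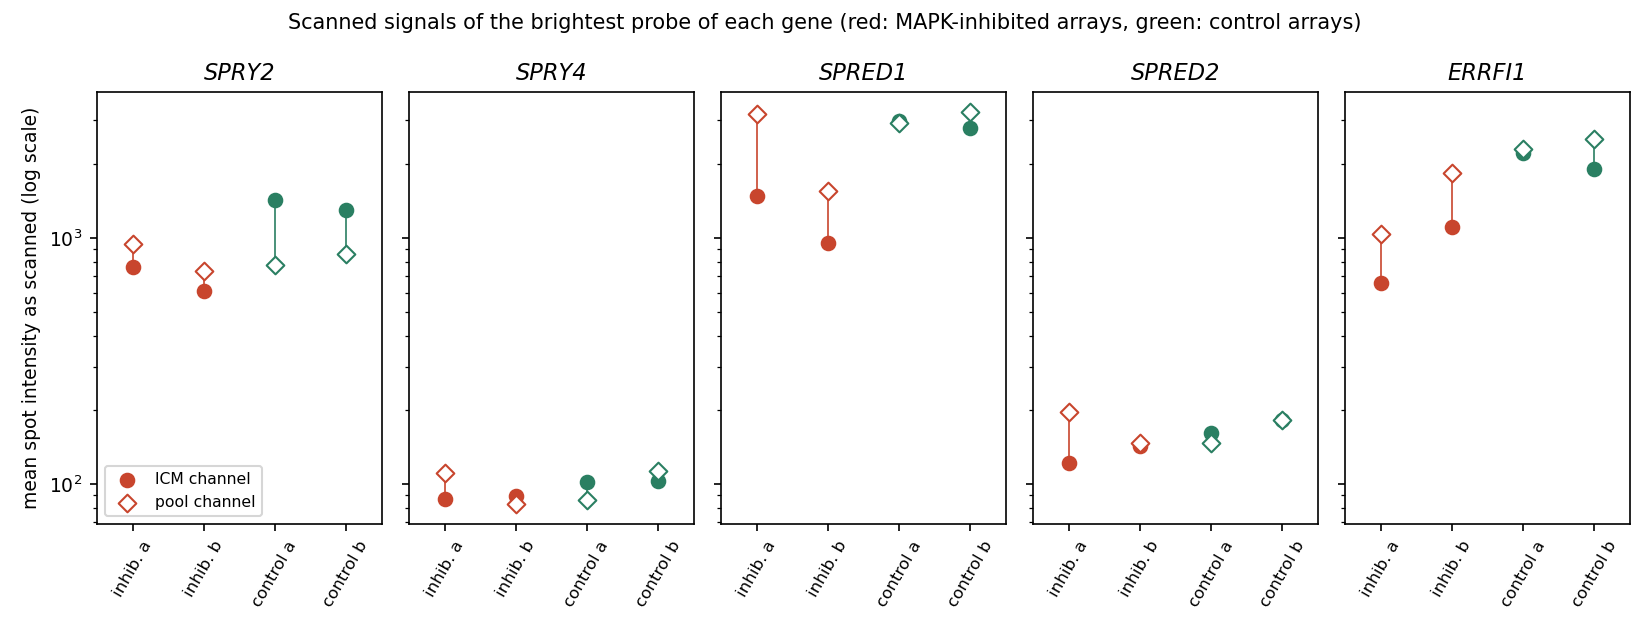
Mean spot intensity as scanned (log axis) of the brightest probe of each gene on the 4 arrays, with filled circles for the ICM channel and open diamonds for the pool channel. As scanned, the SPRY2 signal of the ICM lies below that of the pool on both MAPK-inhibited arrays (761 and 609) and above it on both control arrays (1421 and 1296), and for SPRED1 the gap between ICM and pool is wider on the MAPK-inhibited arrays.

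SPRY4 also acts between receptor and RAF. Its probes were dim. Probe 1 (BTAA009799) had ICM signals of 87.3 and 89.4 on the MAPK-inhibited arrays, against 102 and 103 on the control arrays, and its log2 ratios of 0.02 and 0.08 in MAPK-inhibited ICM lay within those in control ICM, 0.11 and -0.08. The difference was 0.03 with a 95% interval of -0.23 to 0.30. The offset of 50 added to the intensities before taking logs reduces the differences of dim probes such as this one, and with an offset of 16 the value was 0.046. The study lists SPRY4 among the genes at least 2-fold lower in MAPK-inhibited ICM, from the most 3′ probe of the gene. With the authors' processed values, the 2 probes here differed by 0.026 (probe 1) and 0.093 (probe 2), so neither gave that decrease. The 15701 probes without a gene name may include further probes of SPRY4, and which probe the study used is not known here. The values of these 2 probes therefore do not stand for the study's SPRY4 result.

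Probe 2 of SPRY4 (BTAA041014) was close to background. Its ICM signal was 29.1 and 33.6 on the MAPK-inhibited arrays, against 38.9 and 46.2 on the control arrays. The cut-off for background, the 95th percentile of 757 negative control spots, was 48.0 and 32.9 on the MAPK-inhibited arrays and 27.7 and 27.1 on the control arrays, so the probe passed on 3 of the 4 arrays. Its difference was -0.09 (adjusted p = 0.813, limma), and the direction turned in other processing. The other 12 member probes exceeded the cut-off on all 4 arrays.

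SPRED1 carries an EVH1 domain and brings neurofibromin, which switches RAS off, to the membrane. Probe 1 (BTAA009641) was the brightest of all member probes, brighter than 91.2% of the array. Its ICM signal was 1485 and 958 on the MAPK-inhibited arrays, against 2979 and 2795 on the control arrays. Its pool signal was 3185 and 1552 on the MAPK-inhibited arrays, against 2931 and 3259 on the control arrays. The pool channel of MAPK-inhibited array b was thus also dim at this spot, and the ratio takes this into account.

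The log2 ratios of SPRED1 probe 1 were -0.50 and -0.71 in MAPK-inhibited ICM, against -0.12 and -0.17 in control ICM. All 4 were below the pool, and the groups did not overlap. The difference was -0.46 (SE 0.081, 95% interval -0.69 to -0.23, unadjusted p = 0.00503, adjusted p = 0.324 in limma), with -0.38 within replicate a and -0.54 within replicate b.

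SPRED1 probe 2 (BTAA022811) did not show this difference. Its ICM signals of 292 and 322 on the MAPK-inhibited arrays, against 374 and 447 on the control arrays, were far above background, and its log2 ratios were -0.09 and 0.10 in MAPK-inhibited ICM, against 0.00 and 0.06 in control ICM. The difference was -0.02 (95% interval -0.24 to 0.20), and the estimate of probe 1 lay outside this interval. Probe 3 (BTAA038335) and probe 4 (BTAA038436) had ICM signals between 43.7 and 102 and differences of -0.15 and -0.002, with intervals that included 0. The positions of the probes in the transcripts were not analysed here, so the SPRED1 value rests on 1 of 4 probes, and the mean of the 4 was -0.16.

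SPRED2 has the same domains as SPRED1. Probe 1 (BTAA006685) had ICM signals of 122 and 143 on the MAPK-inhibited arrays, against 162 and 182 on the control arrays. Its log2 ratios were -0.16 and -0.01 in MAPK-inhibited ICM, against 0.002 and 0.06 in control ICM. These did not overlap, but the difference was small, -0.12 (95% interval -0.32 to 0.09, adjusted p = 0.693 in limma).

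Probe 2 of SPRED2 (BTAA041902) gave a difference of the opposite sign, 0.15 (95% interval -0.13 to 0.42). Its spots on the MAPK-inhibited arrays had uneven pixels, with coefficients of variation of 90.7% and 133%, and with median instead of mean spot intensities the difference was -0.04. Probe 3 (BTAA023254) was near background, with ICM signals of 40.4 to 55.1 over the 4 arrays and a difference of -0.02. The mean over the 3 probes was 0.004.

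ERRFI1 was bright. Probe 1 (BTAA000197) had ICM signals of 653 and 1107 on the MAPK-inhibited arrays, against 2216 and 1908 on the control arrays, and its pool signals were 1034 and 1840, against 2307 and 2522. Both channels were thus dimmer on the MAPK-inhibited arrays. Its log2 ratios were -0.12 and -0.75 in MAPK-inhibited ICM, against -0.21 and -0.32 in control ICM. The 2 replicates of MAPK-inhibited ICM lay on either side of the controls.

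The difference for ERRFI1 probe 1 was -0.17 (95% interval -0.60 to 0.25), with 0.09 within replicate a and -0.44 within replicate b. The spot on MAPK-inhibited array a had a coefficient of variation of 98.8% over its pixels, against 8.3% on array b. The difference was -0.49 without MAPK-inhibited array a, and 0.15 without MAPK-inhibited array b. Probe 2 (BTAA041613) had even spots, with ICM signals of 431 and 426 on the MAPK-inhibited arrays, against 642 and 565 on the control arrays. Its log2 ratios of -0.12 and -0.24 in MAPK-inhibited ICM overlapped narrowly with those of -0.02 and -0.13 in control ICM, and its difference was -0.11 (95% interval -0.31 to 0.09).

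**Figure D2:**
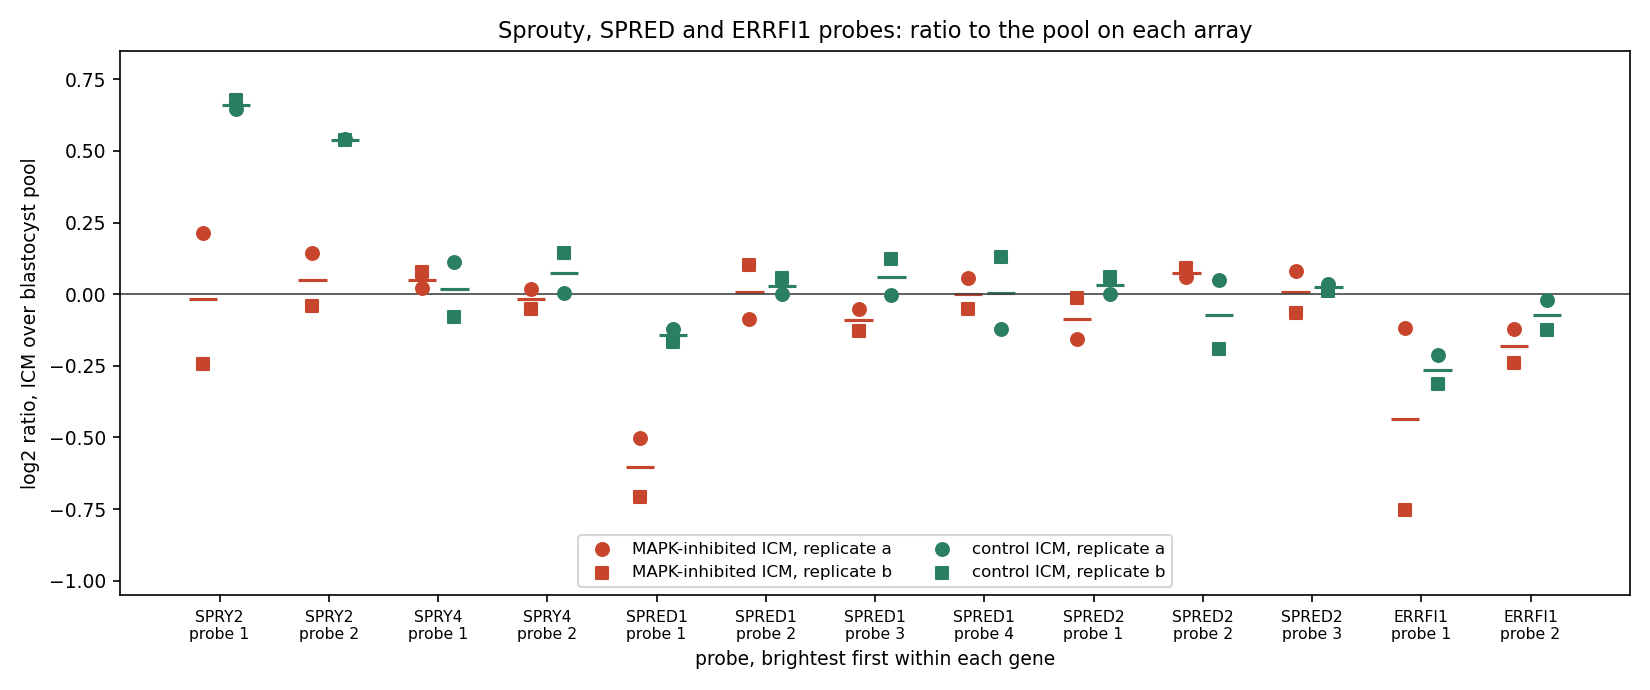
Log2 ratio of ICM over blastocyst pool for the 13 member probes, with circles for replicate a, squares for replicate b and short bars for group means (n = 2). The control points of SPRY2 stand apart at 0.65, 0.68, 0.54 and 0.54, the MAPK-inhibited points of SPRED1 probe 1 lie at -0.50 and -0.71, and the MAPK-inhibited points of ERRFI1 probe 1 lie at -0.12 and -0.75.

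Over the 13 member probes, 11 had a negative difference, against 50.3% of all probes. The number was 8 without background correction, with the authors' processed values, with median centring and without MAPK-inhibited array b. The median difference was -0.11, against -0.001 for all probes, and for the brightest probe of each gene it was -0.17, against 0.007 for all 12545 genes. The groups did not overlap, with lower ratios in MAPK-inhibited ICM, for 5 member probes (SPRY2 probes 1 and 2, SPRED1 probes 1 and 3, SPRED2 probe 1), where 18.3% of all probes were of this kind, and with higher ratios for 1 member probe (SPRED2 probe 2), against 17.2%. An unadjusted p under 0.05 with a lower ratio was found for 3 member probes (SPRY2 probes 1 and 2, SPRED1 probe 1), against 4.63% of all probes, and with a higher ratio for 0 member probes, against 5.5%. Probes of 1 gene are not independent, and 2 of these 3 belong to SPRY2. SPRY2 probe 2 had an unadjusted p of 0.0824 with the local background mean, and SPRY2 probe 1 had 0.0524 without control array a and 0.0595 without control array b (limma).

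No member probe reached a 2-fold lower ratio, which 73 probes of the array did (0.167%). Of the 13 member probes, 2 had ratios above the pool on both MAPK-inhibited arrays, against 29.5% of all probes, and 5 did so on both control arrays, against 29.7%.

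**Figure D3:**
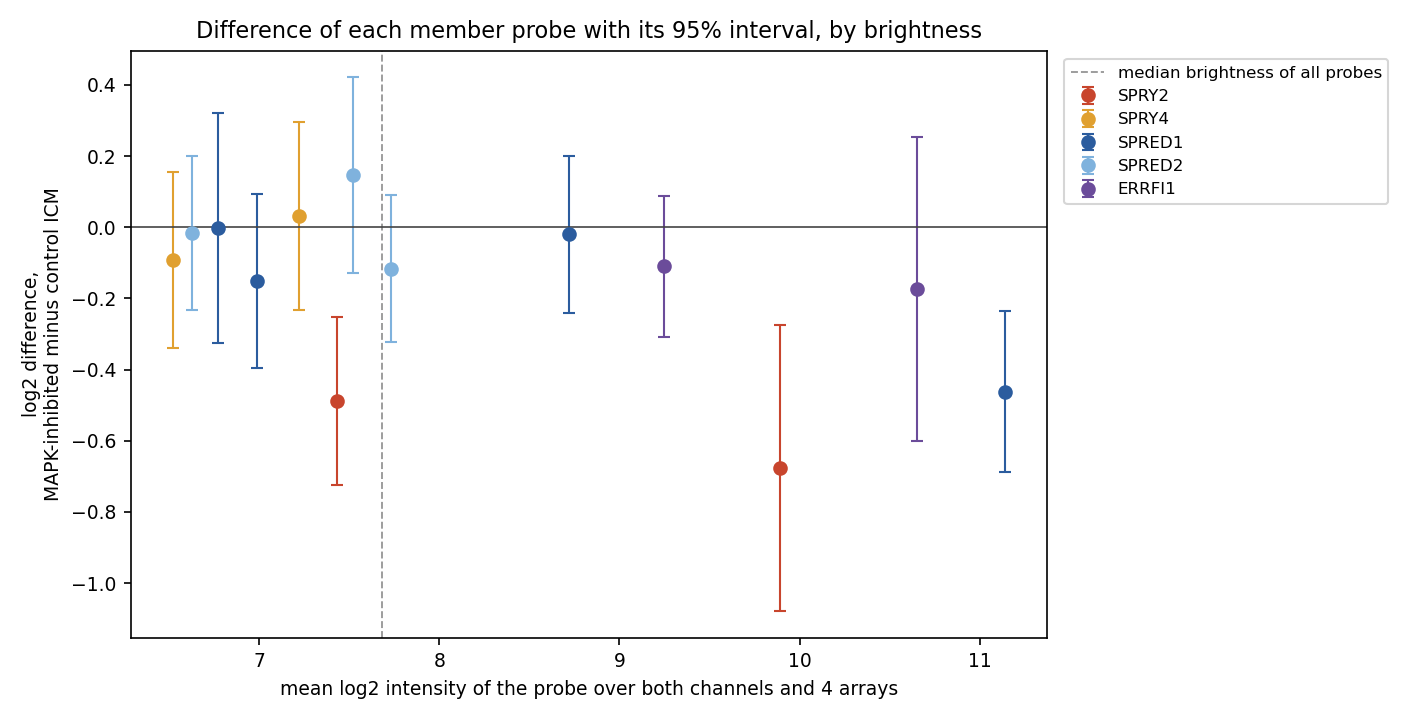
Log2 difference (MAPK-inhibited minus control ICM) of each member probe with its 95% interval, against the mean log2 intensity of the probe. The intervals of both SPRY2 probes and of SPRED1 probe 1 lie below 0, while SPRED1 probe 2 at -0.02 and the dim probes left of the median brightness of the array, 7.68, other than SPRY2 probe 2, have intervals that include 0.

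The MAPK-inhibited arrays were dimmer as a whole. The median ICM signal was 110 and 133 on them, against 167 and 175 on the control arrays, and 33.6% and 4.96% of their spots had pixel coefficients of variation over 50%, against 0.19% and 0.05%. On MAPK-inhibited array a, 5 member spots exceeded 50% (SPRY2 probe 2, SPRY4 probe 2, SPRED1 probe 4, SPRED2 probe 2 and ERRFI1 probe 1). The part of spot quality in these differences was not tested. SPRY2 probe 1 had values of 7.8% and 8.6% on MAPK-inhibited arrays a and b. SPRED1 probe 1 had values of 18.5% and 32.2% on these arrays, against 5.1% and 6.5% on the control arrays.

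The labelled tissue was checked with marker genes. NANOG, a pluripotency factor, had log2 ratios to the pool of 2.72 and 2.66 in MAPK-inhibited ICM, against 1.39 and 1.32 in control ICM, and SOX2 had 1.43 and 1.07, against 1.03 and 0.90. Of 4 ICM markers listed, these 2 had a named probe. POU5F1 and FN1, and CDX2, KRT8 and KRT18 of the trophectoderm list, had none here, although the study measured them on its arrays. Trophectoderm was left with 2 of 5 markers: GATA3 differed by 0.006 with ratios of 0.01 and 0.16 in MAPK-inhibited ICM and 0.17 and -0.02 in control ICM, and TFAP2A by 0.47 with ratios of -0.16 and -0.06 in MAPK-inhibited ICM and -0.57 and -0.59 in control ICM.

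The hypoblast list had 4 measured genes of 5, and 3 of them had negative differences. PDGFRA, listed but without a named probe here, is reported by the study as lower in MAPK-inhibited ICM. GATA6, a hypoblast factor, had ratios of -0.81 and -0.61 in MAPK-inhibited ICM, against -0.19 and -0.12 in control ICM. All 4 were below the pool. In the study's staining the cells of dissected trophectoderm also held GATA6 protein, so GATA6 does not mark the hypoblast alone here. The median ratio of the 4 genes was -0.11 and -0.01 on the MAPK-inhibited arrays, against -0.07 and 0.04 on the control arrays. Cumulus cells, which surround the oocyte, had 3 measured markers of 5 listed. All 3 were higher in MAPK-inhibited ICM without overlap (TNFAIP6 by 0.72, FSHR by 0.55 and CYP19A1 by 0.26), where 19.9% of all genes were of this kind. Their median ratio was 0.16 and 0.20 on the MAPK-inhibited arrays, against -0.002 and -0.17 on the control arrays. HAS2, listed but without a named probe here, is reported by the study as lower in MAPK-inhibited ICM. The part of cell composition in the SPRY2 and SPRED1 values was not tested.

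Of the Sprouty and SPRED family outside the 5 genes, SPRY1 and SPRY3 were measured. SPRY1, a close relative of SPRY2, had log2 ratios of -0.21 and -0.21 in MAPK-inhibited ICM, against -0.12 and -0.08 in control ICM, and a difference of -0.11 (SE 0.0717), which was -0.37 without background correction. SPRY3 had a difference of 0.09 (SE 0.0716).

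Other feedback regulators of ERK were measured with 8 genes of 11 listed. Of these, 3 had negative and 5 positive differences, and the median was 0.026. With median centring 5 of the 8 were negative, and the median was -0.076. DUSP4, a phosphatase that acts on ERK in the nucleus, had ratios of -0.28 and -0.29 in MAPK-inhibited ICM, against 0.39 and 0.27 in control ICM, and a difference of -0.61 (SE 0.0757, unadjusted p = 0.00146, adjusted p = 0.283 in limma). Without background correction the difference was -0.94. Like SPRY2, this probe of DUSP4 lay over the pool on both control arrays. The second probe of DUSP4 lay below the pool on all 4 arrays and differed by -0.03. DUSP5 differed by -0.14, and by -0.43 without background correction, and IER3 differed by 0.25. PHLDA1, counted as positive, differed by 0.029 on a dim probe. Its ICM signals were 44.6 and 39.7 on the MAPK-inhibited arrays, against 48.9 and 54.9 on the control arrays. The study reports lower PHLDA1 and DUSP4 expression in MAPK-inhibited ICM, with a larger decrease of DUSP4 than here. The count and median above rest on the brightest named probes, and which probes the study used is not known here.

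DUSP6, the cytoplasmic ERK phosphatase, was looked at after its values were seen, since its probes disagreed as those of SPRED1 did. The brightest probe differed by -0.01, and its spot on MAPK-inhibited array a had a pixel coefficient of variation of 91.6%. The second probe, also well above background, had ratios of -0.41 and -0.55 in MAPK-inhibited ICM, against 0.67 and 0.29 in control ICM, a difference of -0.96 (SE 0.0928, unadjusted p = 0.000564, adjusted p = 0.27 in limma). Its dimmest probe differed by -0.08.

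The genes upstream of the inhibitors showed no common direction. Among 17 receptors and adaptors measured, 7 differences were negative and 10 positive. FGFR4, a receptor for FGFs, had ratios of -0.14 and -0.05 in MAPK-inhibited ICM, against 0.82 and 0.65 in control ICM, and KIT, the receptor for stem cell factor, had 0.52 and 0.39, against 1.10 and 1.25. The differences were -0.83 for FGFR4 and -0.72 for KIT, whereas the adaptor SHC1 differed by 0.44.

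Of 6 ligands, 3 differences were negative and 3 positive, and the largest in size was 0.11. TGFA (0.11), BTC (0.09) and HBEGF (-0.07) had the smallest p-values, and with median centring in place of loess TGFA and BTC had values of -0.01 and -0.05. In the RAS, RAF, MEK and ERK cascade 4 of 8 genes were negative, with HRAS at -0.25, MAPK3 (ERK1) at -0.23 and the scaffold KSR1 at 0.17. With median centring 6 of these 8 were negative.

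Among proteins known to bind the members, 2 of 8 genes had negative differences. CAV1, a membrane protein of caveolae that binds Sprouty proteins, had ratios of 2.06 and 1.92 in MAPK-inhibited ICM, against 1.25 and 1.21 in control ICM, and a difference of 0.76. TESK1, a kinase that binds Sprouty proteins, differed by 0.27 and CBL by -0.09.

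Transcription factors that ERK induces were negative for 10 of 11 genes, with a median of -0.13, and for 10 of 11 with median centring and without background correction as well. JUNB and FOS, subunits of the AP-1 factor, differed by -0.37 and -0.30, and KLF6, a zinc finger factor, by -0.33. An unadjusted p under 0.05 was reached by these 3. FOS differed by -0.48 without MAPK-inhibited array a and by -0.12 without array b, and KLF6 by -0.44 and -0.21. Over all 7 lists, 59 genes were measured, 30 had negative differences, 7 were lower and 6 higher at an unadjusted p under 0.05, and 0 passed after adjustment in limma. Of all 12545 genes, 5.45% were lower and 8.77% higher at that unadjusted p, and 48.1% had a negative difference.

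**Figure D4:**
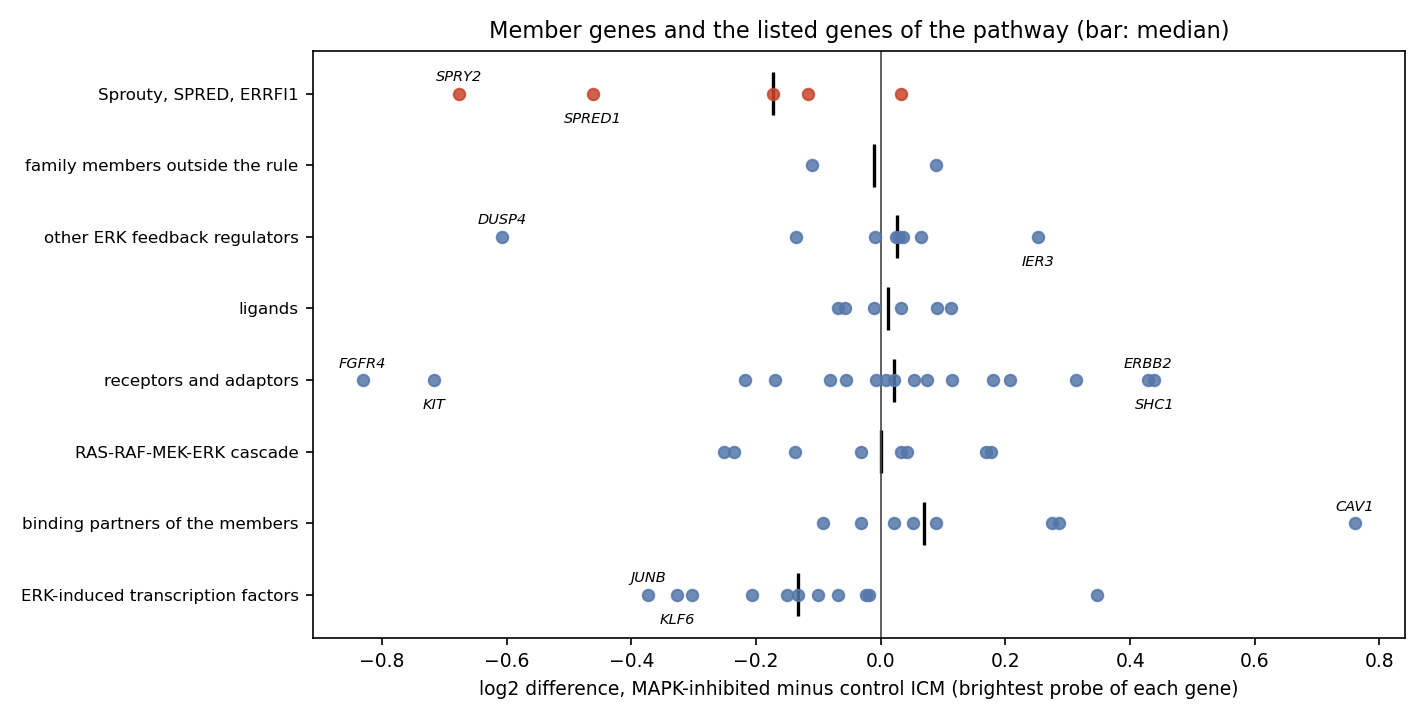
Log2 difference (MAPK-inhibited minus control ICM, brightest probe) of the 5 member genes in red and of the measured genes of the 7 lists in blue, with a black bar at each median. SPRY2 (-0.68) and SPRED1 (-0.46) lie at the low end of the members, whose median is -0.17, DUSP4, FGFR4 and KIT lie lower than the rest of their lists, and CAV1 (0.76) lies higher.

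The genes with the ratios closest to each member were found by Euclidean distance over the 4 arrays among 11495 candidate genes, as a description of 4 values only. For SPRY2 they were GJA1 (0.25), FAM241A (0.26) and ANKRD12 (0.28), and GJA1, a gap junction protein, had ratios of 0.002 and -0.34 in MAPK-inhibited ICM, against 0.63 and 0.59 in control ICM. For SPRED1 they were KRT36 (0.12), IFNA16 (0.12) and ABCC5 (0.14), and for ERRFI1 VMP1 (0.08), SATB1 (0.09) and INSIG1 (0.10). Among the members, SPRED1 and ERRFI1 lay 0.42 apart, SPRY4 and SPRED2 0.27, and SPRY2 between 0.99 and 1.45 from the other 4. SPRY4 and SPRED2, which stayed close to the pool on every array, had 3 genes each within 0.04.

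**Figure D5:**
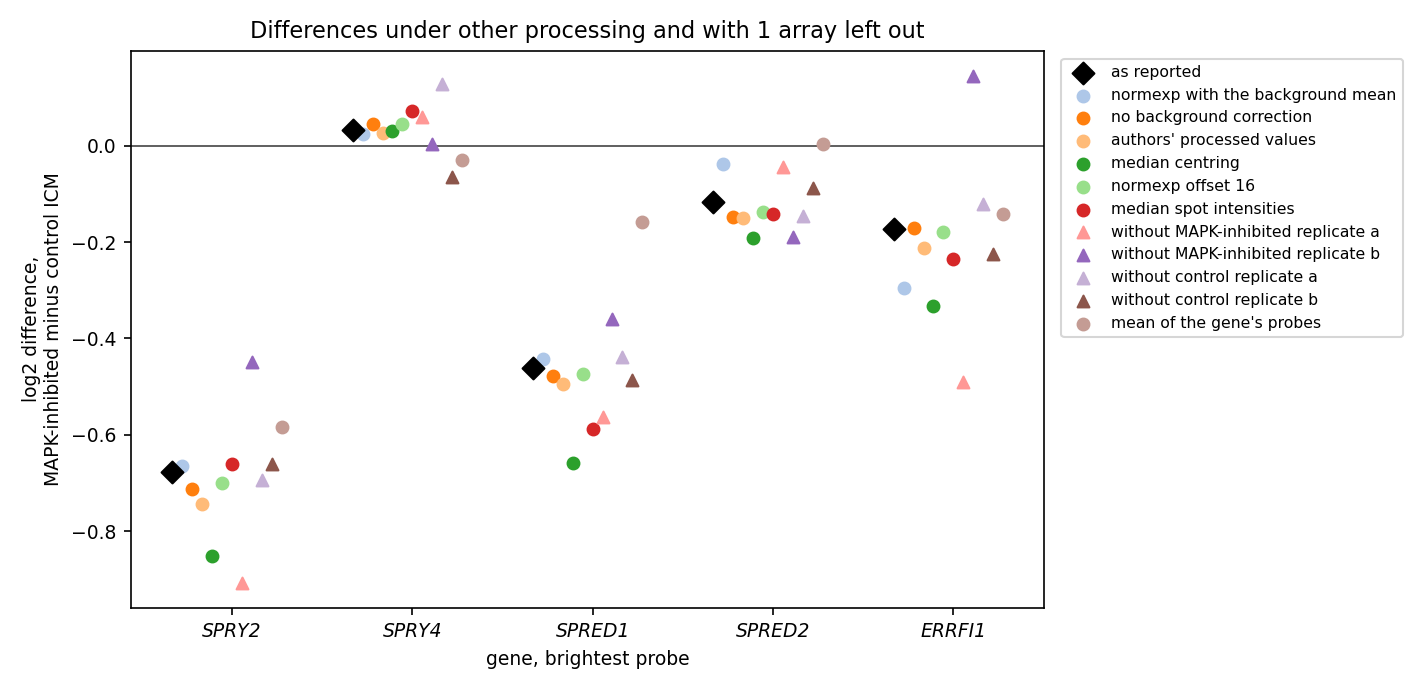
Log2 difference (MAPK-inhibited minus control ICM) of the 5 genes as reported (black diamonds), under other processing (circles) and with 1 array left out (triangles). SPRY2 and the brightest probe of SPRED1 stay below 0 in every setting drawn, with SPRY2 between -0.91 and -0.45, whereas ERRFI1 turns to 0.15 without MAPK-inhibited array b and SPRED2 to 0.004 with the mean of its probes.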

How the data were processed

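Per the file headers, the deposited scanner files hold mean and median spot intensities with local background for 2 channels, and the authors quantified them in Imagene. The authors also deposited log2 ratios made by loess on mean spot intensities and a gene-specific correction of dye bias. These were used as an alternative. Regression of the scanned log2 ratios of Cy5 over Cy3 on them gave slopes of -1.032 and -1.042 where the ICM carried Cy3. The slopes were 1.035 and 1.05 where the ICM carried Cy5, so the deposited ratios run as ICM over pool. Their centring is unknown (medians 0.004 to 0.015).

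In R 4.3.3 with limma 3.58.1, mean intensities were corrected by normexp on the local background median (offset 50), since background means reached 28589, and normalized by loess within arrays with 1567 control spots at weight 0. Ratios were turned to ICM over pool. Group and dye terms were fitted with lmFit and eBayes (1 residual degree of freedom, prior 2.9), two-sided, with Benjamini-Hochberg adjustment over 43653 probes. Intervals are 95% moderated intervals. The replicate letters coincide with the dye, so the dye term is the replicate block, and deviations of arrays of the same letter correlated with r = 0.454. The model was tested on simulated data.

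Symbols came from the platform annotation, with 2004 updated through RefSeq (ARS-UCD2.0). The 15701 probes without a symbol may include further probes of these genes. The study used the most 3′ probe of a gene, and here the brightest stands for it. Named list genes were the 3 with the smallest unadjusted p above background on both arrays of a group. Markers of the ICM, trophectoderm, hypoblast and cumulus cells were listed likewise. The members and lists were chosen with earlier results of these data known. Probe positions and sequences were not analysed here. The number of arrays limits the precision.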

Additional observations from a re-analysis of the deposited data

How the results depend on the processing

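No member probe passed an adjusted p of 0.05 in any setting. Of 388 alternative values, 312 kept their direction and side of the threshold, or stayed close to the reported count or median. Past the threshold were 43 probes of the array when no background was subtracted, 319 when the deposited ratios were fitted, and 0 to 101 when any single array was dropped, most of them without MAPK-inhibited replicate b. Fits without an array had no dye term, and the group left with a single array was assumed to vary like the other, so these counts cannot be set against those of the blocked fit. With median centring, 4763 probes were lower and 904 higher at an unadjusted p under 0.05, against 2022 lower and 2403 higher with loess, and 5 member probes were lower (10.9% of all probes). The calls that were lower made up 84% with median centring and 45.7% with loess, and the cause was not tested. Leaving out 1 array gave 588 to 3306 lower and 647 to 2640 higher probes. Without the replicate block the differences were the same, with 0 probes past the threshold, 1399 lower and 1829 higher. SPRY2 probe 1 ranged from -0.91 to -0.45 and SPRED1 probe 1 from -0.56 to -0.36 with 1 array left out.

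The direction turned for several dim probes and for the brighter SPRED1 probe 2 and ERRFI1 probe 1. SPRY4 probe 1 was -0.030 as the mean of its probes and ranged from -0.065 to 0.128 with 1 array left out. SPRY4 probe 2 was 0.061, 0.093 and 0.040 without background correction, with the authors' values and with median centring. In these 3 settings SPRED1 probe 4 was 0.143, 0.167 and 0.097, and SPRED2 probe 3 was 0.259, 0.263 and 0.102, and 0.007 with the background mean. With median spot intensities, an alternative chosen after seeing the data, SPRED1 probes 2 and 3 were 0.014 and 0.019 and SPRED2 probe 2 was -0.044. The mean of the SPRED2 probes was 0.004. With 1 array left out, SPRED1 probe 2 ranged from -0.116 to 0.075, SPRED1 probe 4 from -0.127 to 0.123, SPRED2 probe 3 from -0.091 to 0.057 and ERRFI1 probe 1 from -0.491 to 0.145. ERRFI1 probes 1 and 2 reached an unadjusted p under 0.05 with median centring, and probe 1 with the background mean. SPRY2 probe 2 did not with the background mean, nor SPRY2 probe 1 without either control array. The signal over background limits the SPRY4 and SPRED2 values.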

Other observations

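A second probe of SPRY1 differed by 0.06 (SE 0.0705) between MAPK-inhibited and control ICM, and the second probe of DUSP4 by -0.03 (SE 0.0784), with a pixel coefficient of variation of 72.2% on MAPK-inhibited array a. For SPRED1, DUSP4 and DUSP6, 1 probe thus had a log2 difference beyond -0.4 and another probe of the same gene was within 0.1 of 0. For DUSP6 and SPRED1, the ICM spots of the probes that differed had coefficients of variation of 13.6% and 18.5% on MAPK-inhibited array a. For SPRED1 the value was 32.2% on array b, and the brightest DUSP6 probe, which was close to 0, had 91.6% on array a. With the deposited log2 ratios, SPRY2 probe 1 differed by -0.74 (adjusted p = 0.0591 in limma), the lowest adjusted p of any member probe over the settings that kept all 4 arrays.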
